A study of Mus musculus with 9 samples.

Results

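The genes described here are 36 genes of cholesterol and fatty acid synthesis, taken by gene symbol from the 18272 genes of the tibia expression table. They comprise the control genes of the sterol regulatory element-binding proteins (SREBPs), the enzymes of sterol and fatty acid synthesis, and genes of sterol export. All 36 were in the table, and all 36 were among the 13960 genes tested, those with 10 or more counts in 3 or more libraries. RNA-seq was performed on tibia from 3 NGT, 3 T1D and 3 Lira mice, with 1 library for each mouse. All mice were female C57BL/6J mice, bought at 10 to 11 weeks of age. NGT mice (normal glucose tolerance) received the vehicle in place of streptozotocin. T1D mice were made diabetic with streptozotocin, which kills the pancreatic beta cells that make insulin, and received saline. Lira mice received streptozotocin and then liraglutide, a drug that acts on the GLP-1 receptor, at 0.6 mg/kg/day. The labels give 8 weeks of liraglutide for Lira mice 1 and 2 and 9 weeks for Lira mouse 3. The diabetes of this model is chemically induced, and the T1D and Lira mice share the toxin.

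SREBPs are transcription factors held in the endoplasmic reticulum. When sterols are low, SCAP escorts them to the Golgi for cleavage, and INSIG proteins hold SCAP back when sterols are plentiful. SREBP-2 chiefly drives the cholesterol pathway, whereas SREBP-1c, which insulin raises in liver and fat, drives fatty acid synthesis together with the glucose-responsive factor ChREBP. The oxysterol receptor LXR acts on sterol export and also on SREBP-1c. Adipocytes, which are present in bone marrow, are rich in fatty acid synthesis enzymes.

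Promoter sequences of these genes were read from the RefSeq table of GRCm38.p6, which held 40 promoter windows for 29 of the 36 genes. Each window ran from 250 bases before the annotated start to 50 bases after it, and both strands were searched. The sterol regulatory element was searched as TCACNCCAC, the E-box as CACGTG, the CCAAT box as CCAAT and the LXR element as 2 copies of AGGTCA in the same direction with 4 bases between them. The sterol regulatory element was found in 2 of the 40 windows (5.0%), those of Hmgcs1 and Mlxipl, and in 1.24% of all 32851 windows. The E-box was in 9 windows of 8 genes (22.5%, against 7.15% of all windows), and the CCAAT box was in 24 windows of 23 genes (60.0%, against 37.4%). The LXR element was in 0 of the 40 windows and in 0.0152% of all windows. These are matches of letters, not binding sites. Shown are the 150 bases before the start of Hmgcs1, of the SREBP inhibitor Insig1 and of 3 lipogenic genes, Fasn, Acly and Elovl6, that differed widely among the mice. All are written 5′ to 3′ on the strand of the gene, and capitals mark matches to any of the 4 motifs:
Hmgcs1, chr13:119690201-119690350, plus strand: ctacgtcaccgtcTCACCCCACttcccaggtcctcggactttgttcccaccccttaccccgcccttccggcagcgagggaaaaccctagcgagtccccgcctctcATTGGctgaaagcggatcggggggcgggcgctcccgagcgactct
Insig1, chr5:28071262-28071411, plus strand: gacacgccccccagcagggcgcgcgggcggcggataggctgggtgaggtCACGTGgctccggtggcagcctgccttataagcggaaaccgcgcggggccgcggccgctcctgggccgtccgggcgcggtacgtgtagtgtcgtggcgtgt
Fasn, chr11:120824548-120824697, minus strand: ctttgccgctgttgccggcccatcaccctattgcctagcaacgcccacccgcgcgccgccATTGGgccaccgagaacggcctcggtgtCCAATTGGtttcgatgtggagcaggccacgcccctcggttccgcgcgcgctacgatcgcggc
Acly, chr11:100528001-100528150, minus strand: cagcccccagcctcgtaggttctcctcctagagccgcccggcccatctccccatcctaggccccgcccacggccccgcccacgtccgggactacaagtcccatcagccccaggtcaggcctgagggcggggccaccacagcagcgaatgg
Elovl6, chr3:129532236-129532385, plus strand: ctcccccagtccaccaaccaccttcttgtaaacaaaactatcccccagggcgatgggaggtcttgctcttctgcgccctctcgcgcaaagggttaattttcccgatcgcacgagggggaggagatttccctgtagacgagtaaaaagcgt
The capitals in Hmgcs1 are the sterol regulatory element and a CCAAT box read on the other strand. Those in Insig1 are the E-box, and those in Fasn are a CCAAT box on the other strand and a pair of overlapping CCAAT boxes, 1 on each strand. In these stretches Acly and Elovl6 held none of the 4 motifs. The promoter of Mlxipl, which encodes ChREBP, is shown around its sterol regulatory element at chr5:135106740-135106778 (plus strand) because Hmgcs1 was the only other gene of the 29 with this match:
Mlxipl: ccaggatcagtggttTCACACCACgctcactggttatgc

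Per gene length, the 36 genes covered a wide range of levels in tibia. The highest mean level over the 9 mice was that of Me1, the cytosolic malic enzyme that supplies NADPH, at 140 FPKM (fragments per kilobase, scaled to library depth). Scd1, the stearoyl-CoA desaturase, followed at 103 FPKM. Acacb, the acetyl-CoA carboxylase of the mitochondrial surface that restrains fatty acid oxidation and is typical of muscle, had a mean of 44.7 FPKM. Mlxipl had 34.0, Fasn (fatty acid synthase) 29.1 and Acly (ATP citrate lyase) 25.1 FPKM. Among the sterol enzymes, Fdft1 (squalene synthase) stood highest at 24.4 FPKM, and Idi1 (isopentenyl diphosphate isomerase) lowest at 0.898 FPKM. The ranges of all neighbours in this order overlapped. Fasn ran from 1.26 to 96.4 FPKM and Scd1 from 2.67 to 325 FPKM, whereas Insig2 ran from 19.1 to 26.8 FPKM.

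**Figure D1:**
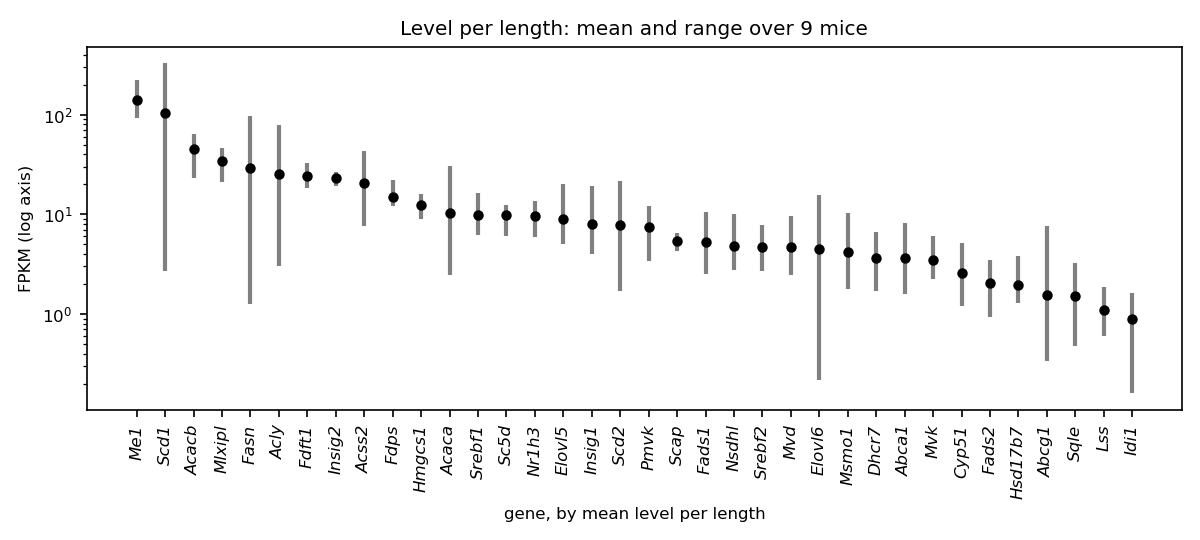
Level per length of each of the 36 genes in FPKM (log axis), in order of the mean over 9 mice. Points are means and grey lines run from the lowest to the highest mouse. Me1 has the highest mean (140 FPKM) and Idi1 the lowest (0.898 FPKM), and the lines of Fasn, Scd1 and Elovl6 are the longest.

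All values below are CPM (counts scaled to a common library size after TMM), which compare mice for the same gene. Some libraries stood apart from the rest. The summed CPM of 12 macrophage markers was 1008 in T1D mouse 1 and 53.7 to 194 in the other 8 mice, and that of 13 osteoblast and osteocyte markers was 5594 against 207 to 1398. T1D mouse 2 stood apart in 11 Schwann cell and myelin markers (1147 CPM against 71.0 to 327), T1D mouse 3 and Lira mouse 3 in the erythroid markers (19340 and 29430 CPM against 462 to 6748), and Lira mouse 3 in the neutrophil and B cell markers (5609 and 243 CPM, against at most 2585 and 108). Although the bones were described as cleaned of muscle, 19 skeletal muscle genes took 11.1% to 15.6% of counts in NGT mouse 1, T1D mouse 1 and Lira mouse 3 and 22.6% to 29.3% in the other 6 mice. The bone marker Bglap (osteocalcin) was listed at 0 in NGT mouse 2 and reached 86.5 CPM in T1D mouse 1. Of the 36 genes, 16 had their highest level of the 9 mice in T1D mouse 1 and 7 in NGT mouse 1, and 9 had their lowest in NGT mouse 3. In such bulk tissue, fewer cells of a type and less RNA per cell cannot be told apart.

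In no comparison of groups was any of the 36 genes a differentially expressed gene by edgeR's quasi-likelihood test (Benjamini-Hochberg adjusted p under 0.05 and fold change over 2). This was so for 0.0% of all genes tested in T1D against NGT, in Lira against T1D and in Lira against NGT. The lowest adjusted p-value of the 36 genes was 0.977, 0.978 and 0.999 in these comparisons, in edgeR's test. At an unadjusted p under 0.05, edgeR's test gave 1 of the 36 genes in T1D against NGT (Abcg1, higher), where 3.95% of all genes were below that value. It gave 0 of 36 in Lira against T1D (3.33% of all genes) and 1 of 36 in Lira against NGT (Me1, lower; 0.781% of all genes, 0.294% lower). Over the 3 groups together it gave 1 of 36, again Me1, beside 2.41% of all genes. DESeq2 also called 0 of the 36 genes in each comparison. At an unadjusted p under 0.05 it gave 1 of 36 in T1D against NGT, 2 in Lira against T1D and 1 in Lira against NGT, beside 4.99%, 4.44% and 1.1% of all genes. The groups did not overlap for 0 of the 36 genes in T1D against NGT (8.6% of all genes) and for 1 gene, Me1, in Lira against T1D (7.13%) and in Lira against NGT (4.27%). The median log2 fold change of the 36 genes was -0.21 in Lira against T1D, with 26 of 36 lower, and -0.15 in Lira against NGT, also with 26 lower, beside 0.04 and 0.04 over all genes. These medians turned to 0.14 in Lira against T1D without T1D mouse 1, with 9 of 36 lower, and to 0.083 in Lira against NGT without NGT mouse 1, with 14 lower. With the replicate number as a block they were -0.010 and -0.026, and with limma-voom and sample weights -0.025 and -0.069. In T1D against NGT, 18 genes were higher and 18 lower, with a median near 0. The comparisons share mice, so their values are not independent.

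**Figure D2:**
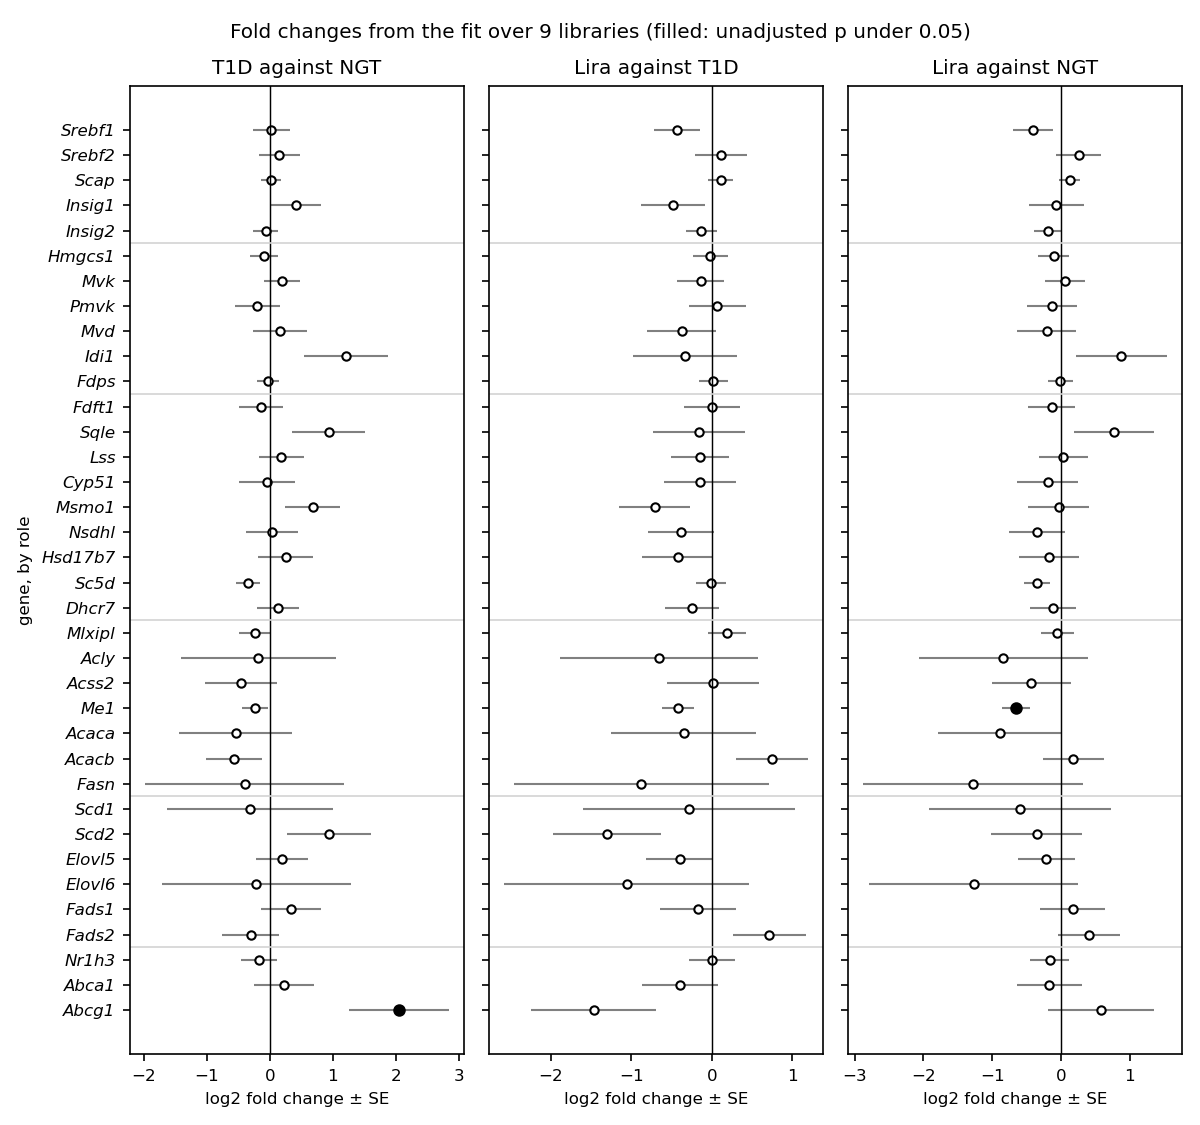
Log2 fold change with its SE for each of the 36 genes, by role, in T1D against NGT, Lira against T1D and Lira against NGT, from the edgeR fit over 9 libraries. Filled points have an unadjusted p under 0.05; they are Abcg1 in T1D against NGT and Me1 in Lira against NGT.

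Of the genes that control SREBP processing, Scap and Insig2 varied least and Insig1 most. Scap, the escort protein, was at 22.0, 23.7 and 20.4 CPM in NGT mice 1 to 3, at 18.5, 24.6 and 24.1 CPM in T1D mice and at 23.6, 24.1 and 24.5 CPM in Lira mice. Its highest level was 1.33 times its lowest, the smallest span of the 36 genes. Insig2, which retains SCAP, was at 45.6, 63.2 and 72.2 CPM in NGT mice, at 50.6, 65.4 and 57.2 CPM in T1D mice and at 51.0, 58.5 and 48.7 CPM in Lira mice. Its lowest and highest levels were both in NGT mice, a 1.59-fold span. Srebf2, which encodes SREBP-2, was at 27.7, 17.7 and 16.6 CPM in NGT mice, at 25.6, 20.7 and 22.5 CPM in T1D mice and at 14.5, 24.5 and 35.3 CPM in Lira mice. Both extremes were in the Lira group.

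Srebf1, which encodes SREBP-1, was at 48.6, 53.4 and 34.0 CPM in NGT mice, at 55.2, 27.7 and 55.8 CPM in T1D mice and at 29.1, 38.2 and 35.4 CPM in Lira mice. T1D mouse 2 lay below all other mice, and the 3 groups overlapped. The log2 fold change was -0.44 ± 0.29 (SE) in Lira against T1D, with an unadjusted p of 0.167 in edgeR's test. It moved to -0.71 without T1D mouse 2 (edgeR's test, unadjusted p = 0.0142), to -0.29 without T1D mouse 1 and to -0.28 without T1D mouse 3. Insig1, itself a target of SREBPs, was at 26.1, 17.6 and 12.0 CPM in NGT mice, at 40.7, 15.7 and 17.8 CPM in T1D mice and at 17.6, 18.2 and 17.5 CPM in Lira mice. Only T1D mouse 1 and NGT mouse 1 exceeded 20 CPM, and the log2 fold change of 0.41 ± 0.40 in T1D against NGT (edgeR's test, unadjusted p = 0.326) became -0.15 without T1D mouse 1.

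The mevalonate enzymes, which build isoprenoid units from acetyl-CoA, spanned from 1.36-fold (Fdps) to 8.71-fold (Idi1). Fdps (farnesyl diphosphate synthase) was at 16.4, 19.8 and 19.8 CPM in NGT mice, at 22.0, 16.2 and 16.7 CPM in T1D mice and at 16.5, 19.6 and 19.6 CPM in Lira mice. The groups overlapped. Hmgcs1, which makes the HMG-CoA that enters the pathway, stayed between 32.1 and 55.0 CPM, Mvk (mevalonate kinase) between 4.43 and 8.32 CPM and Pmvk (phosphomevalonate kinase) between 4.40 and 11.6 CPM. Mvd, the decarboxylase, was at 8.44, 9.98 and 5.54 CPM in NGT mice, at 13.6, 4.45 and 8.80 CPM in T1D mice and at 4.71, 8.26 and 7.75 CPM in Lira mice. Its groups overlapped, and the log2 fold change of -0.38 ± 0.43 in Lira against T1D became 0.06 without T1D mouse 1.

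Idi1, which had the widest span of the mevalonate steps at a low level, was at 2.73, 0.541 and 1.11 CPM in NGT mice, at 2.66, 4.71 and 2.87 CPM in T1D mice and at 4.21, 1.09 and 2.81 CPM in Lira mice. NGT mice 2 and 3 and Lira mouse 2 lay low, and T1D mouse 1 fell below NGT mouse 1, so that NGT and T1D overlapped. The log2 fold change in T1D against NGT was 1.21 ± 0.66 (edgeR's test, unadjusted p = 0.102), and 2.04 without NGT mouse 1 (edgeR's test, unadjusted p = 0.0176). Its counts were not whole numbers in any of the 9 libraries, as happens when reads are divided among similar sequences, so its level is uncertain.

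From squalene to cholesterol, 8 of the 9 enzymes had lower fitted levels in Lira than in T1D mice and 6 had higher levels in T1D than in NGT mice, but none passed the test. Of the 9, 5 had their highest level in T1D mouse 1, and without this mouse 3 of 9 were lower in Lira than in T1D mice and 4 of 9 were higher in T1D than in NGT mice. Msmo1, the sterol C4-methyl oxidase, was at 8.31, 4.72 and 5.07 CPM in NGT mice, at 14.9, 8.51 and 5.60 CPM in T1D mice and at 3.57, 6.31 and 7.81 CPM in Lira mice. T1D mice 1 and 2 were the highest of the 9, but T1D mouse 3 lay within the range of both other groups. The log2 fold change in Lira against T1D was -0.71 ± 0.44 (edgeR's test, unadjusted p = 0.141), and -0.26 without T1D mouse 1 and -0.45 without Lira mouse 1. Sc5d, the sterol C5-desaturase, was at 36.6, 43.9 and 44.4 CPM in NGT mice, at 35.2, 37.9 and 25.5 CPM in T1D mice and at 31.1, 37.8 and 29.3 CPM in Lira mice. NGT mice 2 and 3 were highest, NGT mouse 1 lay among the diabetic mice, and the log2 fold change in T1D against NGT was -0.34 ± 0.19 (edgeR's test, unadjusted p = 0.108), and -0.19 without T1D mouse 3. The counts of Sc5d were not whole in any library either.

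Fdft1, which commits farnesyl diphosphate to sterols, was at 77.8, 130 and 88.6 CPM in NGT mice, at 62.2, 75.1 and 133 CPM in T1D mice and at 109, 100 and 61.4 CPM in Lira mice. Each group held both a low and a high mouse. Sqle, the squalene epoxidase and a rate-limiting step, was at 4.70, 1.47 and 1.5 CPM in NGT mice, at 7.28, 5.11 and 2.33 CPM in T1D mice and at 2.93, 4.98 and 5.22 CPM in Lira mice. NGT mice 2 and 3 had the lowest levels and NGT mouse 1 overlapped with both other groups. Cyp51 (lanosterol demethylase) and Nsdhl (a C4-demethylation enzyme) had their highest levels in T1D mouse 1, at 18.3 and 18.2 CPM, and their next highest in NGT mouse 1, at 16.2 and 15.5 CPM. Lss (lanosterol synthase) ranged from 4.28 to 9.27 CPM, Dhcr7 (the last reductase of the pathway) from 4.85 to 12.8 CPM and Hsd17b7 (a sterol ketoreductase) from 4.89 to 17.4 CPM.

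The widest spreads were in fatty acid synthesis and in elongation and desaturation, where the median spans were 4.20-fold and 6.03-fold, beside 2.98-fold for all 36 genes, and they lay largely within the groups. Fasn was at 807, 233 and 23.9 CPM in NGT mice, at 781, 13.6 and 14.0 CPM in T1D mice and at 50.3, 188 and 202 CPM in Lira mice. NGT mouse 1 and T1D mouse 1 were the highest and T1D mice 2 and 3 the lowest, a 59.2-fold span. The within-group SD of Fasn on the log2(CPM + 1) scale was 2.49, rank 25 among the 13960 genes tested. Fasn and the other genes of this paragraph were chosen after their values were seen. Acly, which makes cytosolic acetyl-CoA from citrate, was at 277, 72.9 and 15.3 CPM in NGT mice, at 284, 18.6 and 19.8 CPM in T1D mice and at 27.1, 81.9 and 95.5 CPM in Lira mice. Acaca, the carboxylase that makes malonyl-CoA for synthesis, was at 222, 87.3 and 27.6 CPM in NGT mice, at 183, 21.9 and 26.9 CPM in T1D mice and at 50.5, 64.4 and 66.6 CPM in Lira mice. Both had NGT mouse 1 and T1D mouse 1 at the top, and NGT mouse 3 and T1D mice 2 and 3 at the bottom. Acss2, which makes acetyl-CoA from acetate, had the same 2 mice at the top (97.2 and 81.4 CPM) over a 4.20-fold span. Elovl6, the elongase that acts on palmitate, was at 70.9, 20.5 and 1.82 CPM in NGT mice, at 75.6, 3.41 and 1.47 CPM in T1D mice and at 3.28, 12.2 and 23.1 CPM in Lira mice. Its highest level was 51.5 times its lowest, and its within-group SD had rank 53.

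**Figure D3:**
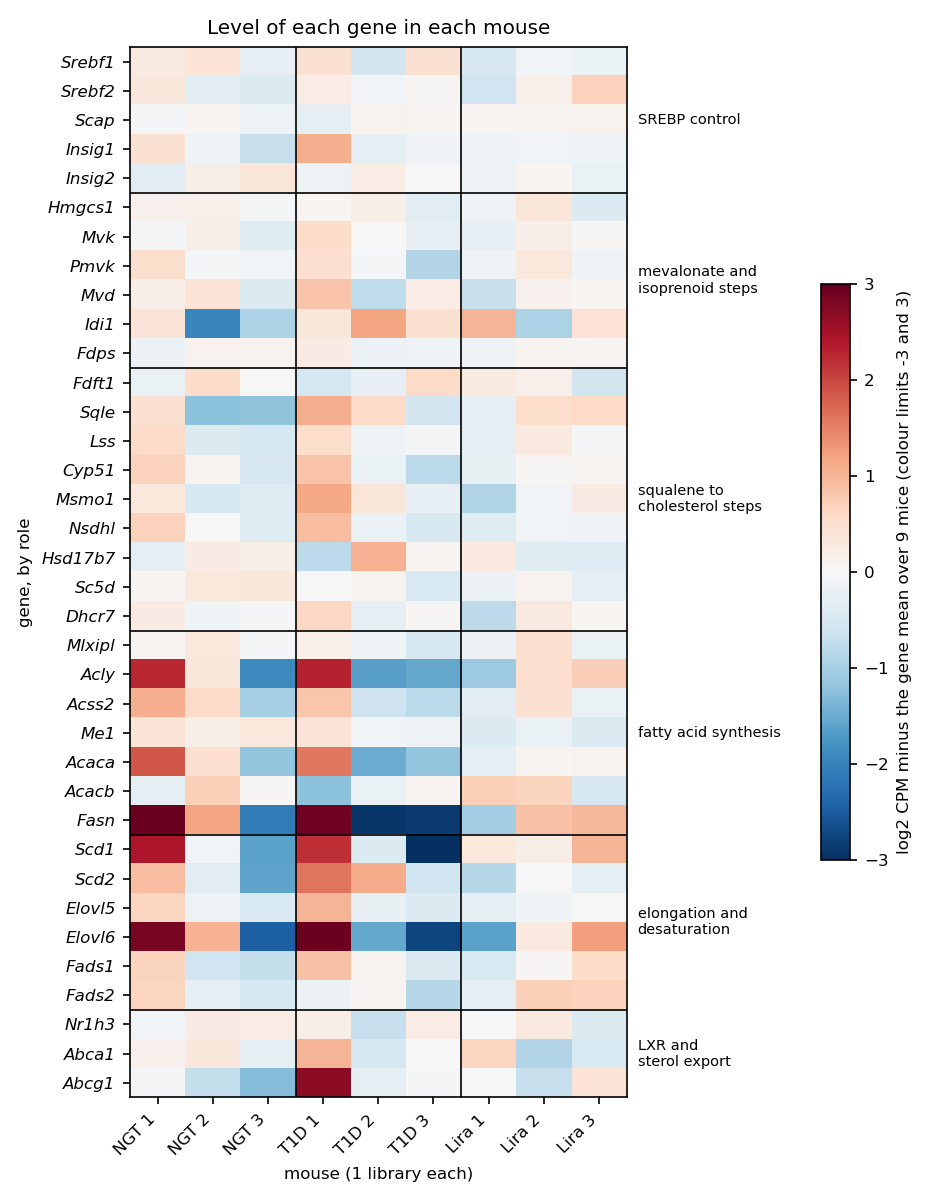
Level of each of the 36 genes in each mouse as log2 CPM minus the mean of the gene over the 9 mice (red higher, blue lower, colour limits -3 and 3), by role. The Fasn, Acly, Acaca, Scd1 and Elovl6 rows are red in NGT mouse 1 and T1D mouse 1 and blue in NGT mouse 3 and T1D mouse 3, whereas the Scap, Insig2 and Fdps rows are near white.

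Scd1, the main desaturase of stearate, was at 1321, 230 and 80.4 CPM in NGT mice, at 1117, 184 and 14.4 CPM in T1D mice and at 306, 281 and 492 CPM in Lira mice. Its 91.7-fold span was the largest of the 36 genes and ran from T1D mouse 3 to NGT mouse 1, and the Lira mice lay in the middle. Scd2, a related desaturase, was at 60.0, 25.6 and 10.7 CPM in NGT mice, at 96.6, 68.4 and 21.0 CPM in T1D mice and at 17.7, 31.5 and 26.3 CPM in Lira mice. T1D mice 1 and 2 were the highest of the 9, while T1D mouse 3 lay inside both other groups. The log2 fold change of Scd2 was 0.95 ± 0.67 in T1D against NGT (edgeR's test, unadjusted p = 0.19) and -1.30 ± 0.67 in Lira against T1D (edgeR's test, unadjusted p = 0.0862). In T1D against NGT it moved to 0.47 without T1D mouse 1, to 0.53 without NGT mouse 3 and to 1.78 without NGT mouse 1, and in Lira against T1D to -0.83 without T1D mouse 1. Between the groups the Schwann cell and myelin markers went the same way. Of these, 11 of 11 had a higher fitted level in T1D than in NGT mice (median log2 fold change 1.57). In Lira against T1D 0 of 11 were higher (median -1.73). Their summed CPM was 71.0 to 327 in NGT mice, 150 to 1147 in T1D mice and 99.1 to 157 in Lira mice. Most macrophage (10 of 11), osteoblast and osteocyte (12 of 13) and adipocyte (10 of 12) markers were also higher in T1D against NGT. In Lira against T1D only 2 of each were higher. Mouse by mouse, the Schwann cell sum did not follow Scd2. It was highest in T1D mouse 2, which had the highest Scd2 after T1D mouse 1. But T1D mouse 1 had a sum of only 150 CPM, and NGT mouse 2 had 327 CPM beside 25.6 CPM of Scd2. The part of Schwann cells in Scd2 was not tested. Scd2 was higher in the T1D mouse of all 3 same-numbered pairs, but the mice are separate animals and the pairs only a hint from these data. In a fit chosen after seeing the data, these pairs were a block and only NGT and T1D were fitted. The log2 fold change of Scd2 was then 1.02 ± 0.18, with an unadjusted p of 0.0017 and an adjusted p of 0.232 in edgeR's test. In that fit 14.0% of all genes had an unadjusted p under 0.05. The counts of both desaturases were not whole in any library, so that their shares of reads are uncertain. Elovl5 (an elongase of polyunsaturated fatty acids) ranged from 16.1 to 44.7 CPM, with T1D mouse 1 highest. Fads1 (the delta-5 desaturase) ranged from 9.26 to 27.9 CPM with T1D mouse 1 highest, and Fads2 (the delta-6 desaturase) from 1.53 to 4.52 CPM with Lira mouse 2 highest.

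Several of these genes had their extremes in the same mice as the adipocyte marker Adipoq (adiponectin), which was at 88.8, 26.7 and 5.38 CPM in NGT mice, at 144, 25.1 and 34.2 CPM in T1D mice and at 34.7, 13 and 36.4 CPM in Lira mice. NGT mouse 1 and T1D mouse 1 were again the highest and NGT mouse 3 the lowest. The ratio of Fasn to Adipoq was 9.09, 8.74 and 4.44 in NGT mice, 5.44, 0.542 and 0.410 in T1D mice and 1.45, 14.5 and 5.55 in Lira mice. T1D mice 2 and 3 and Lira mouse 1 thus had less Fasn for the same Adipoq than the other 6 mice. The ratio of Acly to Adipoq was 0.740, 0.580 and 0.782 in these 3 mice and 1.97 to 6.29 in the other 6. That of Elovl6 to Adipoq was 0.135, 0.0430 and 0.0947 in these 3 mice and 0.338 to 0.934 in the other 6. Scd1, Acaca and Acss2 did not divide the mice in this way. The ratio of Scd1 to Adipoq was 7.30 in T1D mouse 2 and 8.82 in Lira mouse 1, beside 7.78 in T1D mouse 1, and was low in T1D mouse 3 alone (0.422). The ratio of Acaca to Adipoq was 1.46 in Lira mouse 1 and 1.27 in T1D mouse 1, and that of Acss2 to Adipoq was lowest in T1D mouse 1 (0.567). The summed CPM of 13 adipocyte markers was 650 to 1846 in NGT mice, 1066 to 2458 in T1D mice and 968 to 1843 in Lira mice, of which Pnpla2 (a lipase also present in muscle) and Fabp4 made up a large part. Pnpla2 alone was 1049 CPM in Lira mouse 1 and 482 and 410 CPM in NGT mouse 1 and T1D mouse 1, the mice with the most Adipoq. Of the defining markers, Lep was listed at 0 in T1D mouse 3 and the brown adipocyte marker Ucp1 was under 3 counts in 8 of 9 mice. Over the 9 mice (log2(CPM + 1)), Pearson's r with the summed adipocyte markers was 0.59 for Fasn, 0.639 for Acly and 0.703 for Acaca. It was 0.588 for Elovl6 and 0.523 for Scd1. None of these passed by exact permutation (adjusted p of 0.125 to 0.256 over 108 relations). Without NGT mouse 3 and T1D mouse 1, r was 0.175 to 0.516. Of these genes, only Acly and Elovl6 passed with the skeletal muscle list, both with a negative r. Beyond these relations, the part of adipocyte content in the spread of these genes was not tested.

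**Figure D4:**
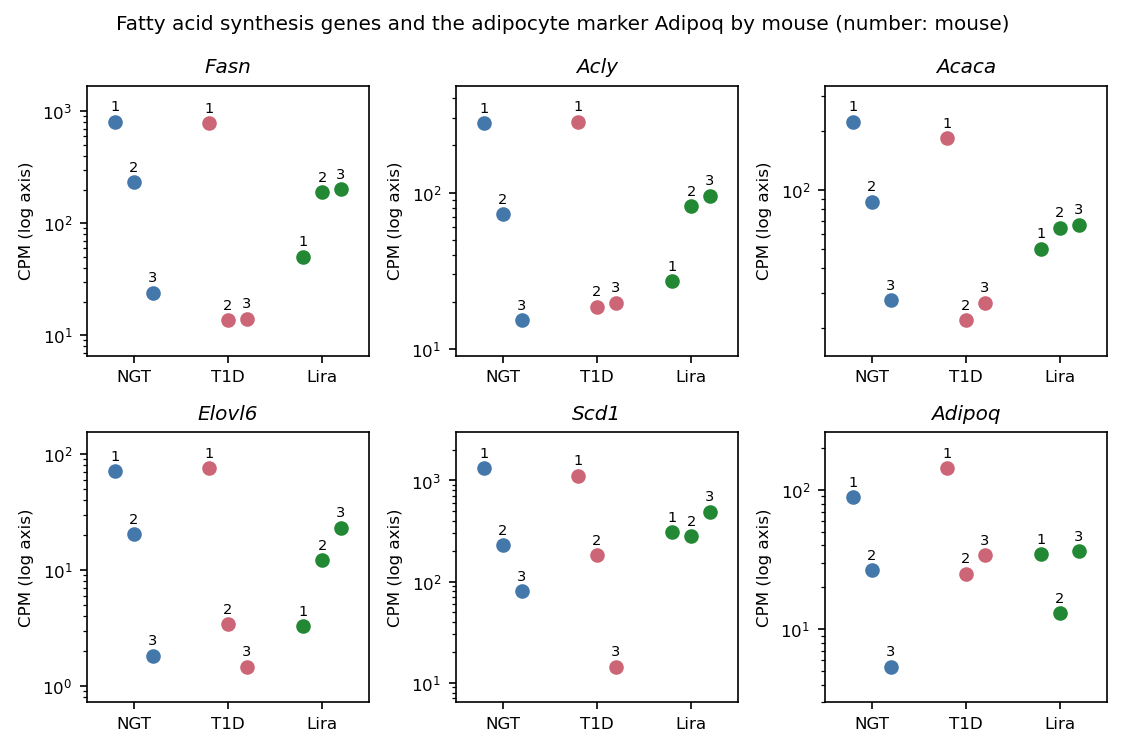
CPM (log axis) of Fasn, Acly, Acaca, Elovl6, Scd1 and the adipocyte marker Adipoq in each mouse, with the mouse number beside each point. NGT mouse 1 and T1D mouse 1 are the highest 2 points in every panel, and T1D mice 2 and 3 are at 13.6 and 14.0 CPM for Fasn.

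Leaving out 1 mouse changed how T1D compared with NGT for these genes, and T1D mouse 1 and NGT mouse 1 did so in opposite directions. Without T1D mouse 1, 5 of the 36 genes had an unadjusted p under 0.05 in T1D against NGT, all lower (3.0% of all genes in either direction and 1.39% lower), in place of 1 gene higher. Fasn had a log2 fold change of -4.68 (edgeR's test, unadjusted p = 0.0116), Elovl6 of -3.67, Acly of -2.67, Acaca of -2.21 and Me1 of -0.43. The median of the 36 genes in this comparison became -0.22, and in Lira against T1D there was 1 gene, Fasn, at an unadjusted p under 0.05 (0.959% of all genes higher). Its log2 fold change was 3.41 (edgeR's test, unadjusted p = 0.0346). Without NGT mouse 1 the same comparison of T1D with NGT gave 4 genes, all higher (7.32% of all genes in either direction and 4.49% higher), namely Abcg1, Idi1, Scd2 and Sqle, and a median of 0.25. The adjusted p of all these genes stayed at 0.593 or above in edgeR's test. In a fit chosen after seeing the data, same-numbered NGT and T1D mice were taken as pairs and only these 2 groups were fitted. There 5 genes had an unadjusted p under 0.05, where 14.0% of all genes did, and 0 genes were called.

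Me1 had a narrow spread, 1.80-fold over the 9 mice, with the T1D mice the most spread. Me1 (gene 17436) was at 564, 483 and 530 CPM in NGT mice (525 ± 40.8, SD, n = 3), at 559, 403 and 380 CPM in T1D mice (447 ± 97.4) and at 321, 369 and 313 CPM in Lira mice (334 ± 29.96). All Lira mice lay below all NGT and all T1D mice. The log2 fold change was -0.65 ± 0.20 in Lira against NGT, with an unadjusted p of 0.0112 and an adjusted p of 0.999 in edgeR's test. It was -0.42 ± 0.20 in Lira against T1D, with an unadjusted p of 0.0689. Under the alternatives this value ran from -0.56 to -0.23, with unadjusted p of 0.0299 to 0.237, and it was -0.23 without T1D mouse 1. By exact permutation over the mice, two-sided, either difference had p = 0.1, the smallest that 3 against 3 allow. In Lira against NGT, the unadjusted p of Me1 stayed between 0.000841 and 0.0488 and its log2 fold change between -0.73 and -0.60 under the 19 alternatives tried, with adjusted p of 0.751 to 1.0.

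Of the other genes of fatty acid synthesis, Mlxipl was at 118, 137 and 106 CPM in NGT mice, at 124, 102 and 80.0 CPM in T1D mice and at 98.1, 154 and 96.8 CPM in Lira mice. All 3 groups overlapped over a 1.92-fold span. Acacb was at 300, 610 and 377 CPM in NGT mice, at 157, 324 and 389 CPM in T1D mice and at 607, 588 and 261 CPM in Lira mice. It was low in T1D mouse 1, Lira mouse 3 and NGT mouse 1, the 3 mice with the fewest muscle counts, and its log2 fold change in T1D against NGT was -0.57 ± 0.45 (edgeR's test, unadjusted p = 0.238). It was -0.23 without NGT mouse 2 and -0.27 without T1D mouse 1. T1D mouse 1 thus had the lowest Acacb of the 9 mice and, after NGT mouse 1, the highest Acaca.

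The sterol export genes were led by 1 mouse. Abcg1 (gene 11307), a transporter that passes cholesterol to high-density lipoprotein, was at 5.39, 3.40 and 2.30 CPM in NGT mice (3.70 ± 1.57, SD, n = 3), at 35.9, 4.65 and 5.47 CPM in T1D mice (15.3 ± 17.8) and at 5.57, 3.51 and 7.52 CPM in Lira mice (5.53 ± 2.01). T1D mouse 1 stood far above the other 8, and T1D mouse 2 lay below NGT mouse 1. The log2 fold change in T1D against NGT was 2.05 ± 0.79, with an unadjusted p of 0.0304 and an adjusted p of 0.977 in edgeR's test, and it was 0.45 without T1D mouse 1. Its unadjusted p was also above 0.05 without NGT mouse 2 (0.0754) or NGT mouse 3 (0.0938), in edgeR's test. In Lira against T1D it was -1.47 ± 0.77 (edgeR's test, unadjusted p = 0.0917), and 0.13 without that mouse. Abca1, which loads cholesterol onto apolipoprotein A-I, was at 36.4, 42.6 and 27.3 CPM in NGT mice, at 67.5, 23.3 and 34.0 CPM in T1D mice and at 52.2, 18.2 and 24.2 CPM in Lira mice. T1D mouse 1 was again the highest, and the groups overlapped. Nr1h3, which encodes LXRα, was at 15.6, 19.8 and 19.5 CPM in NGT mice, at 19.1, 10.4 and 19.4 CPM in T1D mice and at 16.7, 20.2 and 12.2 CPM in Lira mice. T1D mouse 2 and Lira mouse 3 were the lowest, and the groups overlapped.

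Abcg1 followed the macrophage markers across the mice. The ratio of Abcg1 to Csf1r, the macrophage colony-stimulating factor receptor, ranged only from 0.198 to 0.473 over the 9 mice, a 2.39-fold span against the 15.6-fold span of Abcg1 itself. On the log2(CPM + 1) scale Abcg1 correlated with the summed macrophage markers at Pearson's r = 0.966 (exact permutation p = 0.000623, adjusted p = 0.0168) and Spearman's rho = 0.917 (exact permutation p = 0.00131, adjusted p = 0.0708), and at r = 0.933 without NGT mouse 2 and T1D mouse 1. Here p-values were adjusted over 108 relations, those of the 36 genes with 3 marker lists. Fads1 correlated with the macrophage markers at r = 0.781 (exact permutation p = 0.00219, adjusted p = 0.0382) and rho = 0.833 (exact permutation p = 0.00827, adjusted p = 0.112), and at r = 0.691 without the same mice. Insig1 correlated with the adipocyte markers at r = 0.861 (exact permutation p = 0.00276, adjusted p = 0.0382) and rho = 0.817 (exact permutation p = 0.0108, adjusted p = 0.116), and at r = 0.627 without NGT mouse 3 and T1D mouse 1. With a marker list that left out Pnpla2 and Fabp4, chosen after seeing the data, Insig1 correlated at r = 0.911 (exact permutation p = 0.000692, adjusted p = 0.0149) and rho = 0.7 (exact permutation p = 0.0433, adjusted p = 0.173), and at r = 0.797 without the same mice. Elovl5 then passed as well, at r = 0.821 (exact permutation p = 0.0056, adjusted p = 0.0432) and rho = 0.517 (exact permutation p = 0.162, adjusted p = 0.336), and at r = 0.639 without these mice. With the muscle list no pooled r is given, since 3 mice lay apart from 6. Over all 9 mice 10 of the 36 genes passed with it, all but Acacb with a negative r. For Fads1 and Elovl5, r was larger in size with this list than with the macrophage or adipocyte markers above. Among the 10 genes were Abcg1, Fads1, Insig1 and Elovl5. Muscle, macrophage and adipocyte content thus cannot be told apart for these genes. Within the 6 mice with most muscle counts, r with the muscle list was -0.898 for Scd2 (exact permutation p = 0.0264, adjusted p = 0.663) and -0.766 for Fads1 (exact permutation p = 0.0681, adjusted p = 0.663), with rho of -0.657 (exact permutation p = 0.175) and -0.714 (exact permutation p = 0.136), and 6 mice are too few for a single gene to pass after adjustment over 36. All 9 mice enter these relations, so differences between the groups are part of them, and what links the genes to these cells was not tested.

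**Figure D5:**
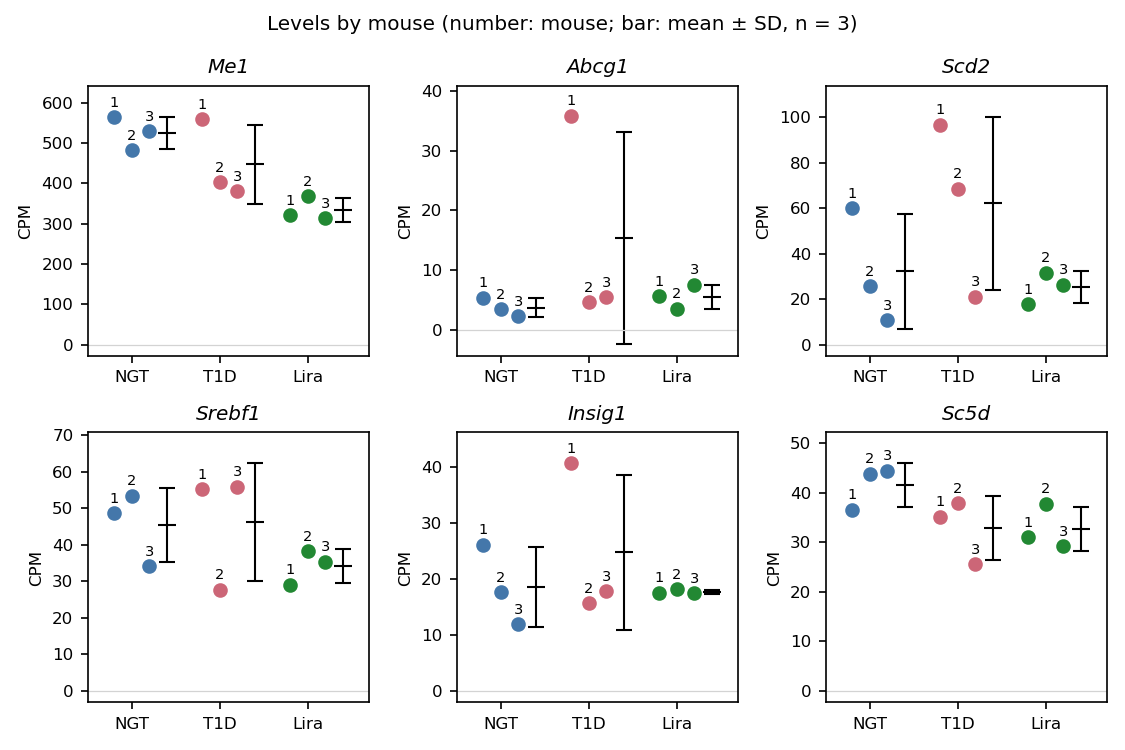
CPM of Me1, Abcg1, Scd2, Srebf1, Insig1 and Sc5d in each mouse, with the mouse number beside each point and, to the right of each group, its mean ± SD (n = 3). All 3 Lira mice lie below the other 6 for Me1, and T1D mouse 1 stands alone at 35.9 CPM for Abcg1.

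Other genes of these pathways gave little more. Of 12 further sterol synthesis genes, 15 genes of SREBP processing and sterol uptake, 30 further genes of fatty acid and triglyceride synthesis and 16 further LXR targets and sterol storage genes tested, 0 were called in any comparison. At an unadjusted p under 0.05 there were 2 genes, both of SREBP processing and sterol uptake and both higher in Lira than in T1D mice (1.55% of all genes higher), and 1 LXR target or storage gene higher in T1D than in NGT mice (2.36% of all genes higher). Syvn1, an endoplasmic reticulum ubiquitin ligase, was at 34.6, 27.8 and 30.1 CPM in T1D mice and at 44.8, 36.2 and 46.8 CPM in Lira mice, with no overlap. The NGT mice, at 35.8, 38.4 and 35.4 CPM, overlapped with the Lira mice. In Lira against T1D the log2 fold change of Syvn1 was 0.47 ± 0.15 (edgeR's test, unadjusted p = 0.0141, adjusted p = 0.978). Gramd1c, a sterol transfer protein, was at 1.63, 1.11 and 1.20 CPM in T1D mice and at 2.36, 1.64 and 5.28 CPM in Lira mice. The NGT mice, at 2.98, 1.24 and 2.06 CPM, overlapped with both groups. Lira mouse 2 was just above T1D mouse 1, and the log2 fold change in Lira against T1D was 1.23 ± 0.52 (edgeR's test, unadjusted p = 0.0443, adjusted p = 0.978).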

How the data were processed

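RNA was taken from 1 tibia of each mouse, and groups came from the labels. The authors deposited expected counts, estimated per gene and not normalized (30.2% of them not whole), and FPKM values, normalized by the authors to transcript length and depth. The submitters' processing notes name mm9. The aligner and counting tool are not given in the sources used here, and neither is a strand setting, so that overlapping genes may share reads. No coordinates were taken from the files, and 0 sample columns were left unmapped.

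Expected counts were rounded, and genes with 10 or more counts in 3 or more libraries were kept. The test was that of edgeR 4.0.16 in R 4.3.3 (TMM, glmQLFit, glmQLFTest, 3 group means over 9 libraries, Benjamini-Hochberg adjustment over 13960 genes), and SEs came from the F statistic. Library totals ran from 13086373 to 16528394 counts, so that a count of 0 allows up to 0.163 to 0.238 CPM (3 counts), which covers counting error only. Single values were compared by exact permutation in Python 3.11.15, two-sided. The procedure was tested on simulated data. Alternatives were DESeq2 1.42.0, limma 3.58.1 on log2(FPKM + 1), library size scaling, other filters, edgeR's robust option, the replicate number as a block, fits of 2 groups, a pseudocount of 5 for marker relations, and omitting each mouse in turn. The block with only 2 groups, limma-voom with sample weights and an adipocyte list without Pnpla2 and Fabp4 were chosen after seeing the data.

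Each library is from a different mouse by its label. As a check of pairing, deviations from the group means (log2 CPM) of NGT and T1D mice with the same number correlated across genes at 0.583, 0.647 and 0.283, and these numbers were taken as pairs, as a hint from the data. The other comparisons had same-numbered values down to -0.244 and were not taken as pairs, although the block was also fitted for them as an alternative.

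The 36 genes and all gene lists were chosen with earlier results of these data known. Values of every mouse are given for Srebf1, Srebf2, Nr1h3 and Mlxipl, for the gene of each role with the highest mean FPKM, for the genes of each role with the lowest unadjusted p in T1D against NGT and in Lira against T1D, and for genes with an unadjusted p under 0.05. Of the other pathway genes, those with an unadjusted p under 0.05 were named, at most 3 in a comparison, except 1 that is not reported here. All other genes named with their values in every mouse (Scap, Sqle, Acly, Acaca, Fasn, Elovl6 and Abca1) were chosen after these were seen.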

Additional observations from a re-analysis of the deposited data

How the results depend on the processing

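In all alternatives tried, 0 of the 36 genes were called in any comparison or over the 3 groups. The number of genes at an unadjusted p under 0.05 did change. In T1D against NGT it was 1 in the analysis reported, 0 with only the 2 groups compared (3.99% of all genes), 0 with limma on log2(FPKM + 1) (3.1%), 2 with limma-voom and sample weights (8.45% of all genes), and 0 to 5 when each mouse was left out in turn (1.61% to 7.32% of all genes). In Lira against T1D it was 0 as reported, 2 with DESeq2 (4.44%), 1 with only the 2 groups compared (2.13%), and 0 to 3 with each mouse left out (1.83% to 5.35%). In Lira against NGT it was 1 as reported, 3 with limma-voom and sample weights (5.84%), and 1 to 3 with each mouse left out (0.423% to 3.2%). Some directions turned when T1D mouse 1, which had the highest level of the 9 for each of these genes, was left out. With each mouse left out in turn, the log2 fold change ran from -1.91 to 0.13 for Abcg1 and from -0.71 to 0.060 for Mvd in Lira against T1D, and from -0.15 to 0.75 for Insig1 in T1D against NGT; the values of 0.13, 0.060 and -0.15 are those without T1D mouse 1.

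With the replicate number as a block over the 9 libraries, the counts at an unadjusted p under 0.05 were 1, 0 and 1 in T1D against NGT, Lira against T1D and Lira against NGT, beside 5.39%, 3.63% and 1.15% of all genes. With the block and only the 2 groups compared, T1D against NGT gave 5 genes (Abcg1, Msmo1, Scd2 and Sqle higher, Acacb lower), or 5 of 36 beside 14.0% of all genes, a share like the background. With the block over the 9 libraries the medians of the 36 genes were -0.012, -0.010 and -0.026 in these comparisons, with 17 of 36 higher in each. The block changed no call. With 3 mice in a group and a biological coefficient of variation of 0.433, the SE of the log2 fold change of Fasn was 1.58 to 1.60, which leaves smaller differences unresolved. Idi1, at 0.541 to 4.71 CPM, is also limited by depth.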
